A study of Mus musculus with 4 samples.

Results

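The genes described here are 42 ligands, receptors, intracellular effectors and antagonists of the TGF-beta and BMP pathways, out of 18193 genes that the arrays could name. They were listed by symbol, and each was represented by the probe set with the highest mean signal among those annotated with that gene alone. All 42 were found on the arrays, on 95 probe sets, and 35 passed a filter on dim probe sets. The set divides into 12 ligand genes (counting Bmp1, whose product is a protease), 12 receptors and co-receptors, 8 Smads with the co-repressor gene Skil, 4 Id genes and 5 antagonists.

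RNA came from mice bearing a flank tumour of 293EBNA cells, a line derived from human embryonic kidney, grown to 2000 mm3. In the Apex group (2 arrays) the tumour cells were transfected with the empty APEX vector. In the VEGFD group (2 arrays) the vector contained VEGFD, the gene of a growth factor for lymphatic endothelium. As described, the collecting lymphatic vessels draining the tumour were traced with the dye Patent Blue V and dissected in both groups. Endothelial cells were then sorted magnetically. The titles place these cells in the collecting duct, but the account of the RNA extraction places them in lymph nodes. The sources thus differ on the tissue of origin, which was not tested. The sources used here do not give the strain, sex or age of the mice, the sorting antibody or any pooling of animals. The titles call the arrays of a group biological replicates but do not say that they came from separate animals, so p-values measure the spread between these arrays.

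TGF-beta family ligands are secreted dimers that bring type I and type II receptor kinases together. TGF-beta and activin receptors mainly phosphorylate Smad2 and Smad3, BMP receptors phosphorylate Smad1, Smad5 and Smad9, and either group enters the nucleus with Smad4. In endothelium the type I receptor encoded by Acvrl1 and the co-receptor endoglin, encoded by Eng, carry BMP signals, whose classic targets are the Id genes. The inhibitory Smads, Smad6 and Smad7, and Skil are induced by the pathway and damp it, while noggin, gremlin and follistatin bind ligands outside the cell.

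Marker signals went largely against the endothelial label on the arrays other than Apex replicate 2. On every array the summed signal of fibroblast markers exceeded that of pan-endothelial markers. The summed signal of 12 pan-endothelial markers was 448 and 4107 on Apex replicates 1 and 2, and 426 and 288 on VEGFD replicates 1 and 2. Emcn alone gave 2670 of the 4107. Pecam1, Cdh5, Tie1, Erg and Robo4 exceeded a signal of 25.3, the level of the dim filter, on Apex replicate 2 alone. Ramp2, Egfl7 and Ecscr exceeded it on every array and were highest on Apex replicate 2. Emcn, Esam, Cldn5 and Tek exceeded it on some arrays. Tek was highest on Apex replicate 1 (101), with 43.9 on Apex replicate 2 and 86.1 and 20.3 on the VEGFD arrays. Prox1, which defines lymphatic endothelium, reached at most 11.6 on any array in the probe set used, and 9 lymphatic endothelial markers summed to 1294 and 2533 against 1595 and 2244. Most of each sum came from Pdpn alone, at 963 and 1622 against 1237 and 1715. The summed signal of 10 fibroblast markers lay between 20696 and 24221 in the Apex group and between 24018 and 24696 in the VEGFD group. Of the 9 fibroblast markers that passed the filter, 5 had a higher and 4 a lower mean log signal in the VEGFD group. Among the lower ones Dpt differed widely, with 2725 and 2407 in the Apex group against 204 and 168. The summed signal of 11 smooth muscle and pericyte markers was 7664 and 8949 against 9447 and 18743. Fat cell markers (7 genes) summed to 2100 and 4591 in the Apex group and to 1218 and 1245 in the VEGFD group, and epithelial markers (9 genes) to 450 and 577 against 293 and 224. Fabp4 alone gave most of each fat cell sum, at 1741 and 4073 against 1098 and 1047. Macrophage and lymphocyte markers (8 genes each) lay between 671 and 810 and between 105 and 119 on all arrays. In such bulk samples fewer cells of a type and less RNA per cell cannot be told apart. The part of these marker levels in the differences below was not tested.

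Signals are listed with the Apex arrays first and then the VEGFD arrays, replicate 1 before replicate 2. A log2 change is the VEGFD mean minus the Apex mean of log2(signal + 16), with the standard error (SE) of a limma fit over 11677 genes and n = 2 and 2 arrays. The added 16 understates the change of dim genes. A gene was called at a Benjamini-Hochberg adjusted p under 0.05.

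No member of the pathway was called. None of the 11677 genes passed in limma (0%), and the members' adjusted p-values lay between 0.823 and 0.974. At an unadjusted p under 0.05 limma gave 666 genes (5.7%), among them 4 of the 35 members: Tgfbr1 and Skil with more signal in VEGFD arrays, Smad3 and Bmp7 with less. Both VEGFD signals lay on one side of both Apex signals in 15 of 35 members, 42.9% against 38.5% of all genes tested. Of these 11 were higher, against 16.6% of all genes, and 4 lower, against 21.8%. At least 2-fold apart without overlap were 4 members, against 3.88% of all genes. These were Tgfbr1, Bmpr1b and Inhba, higher (1.09% of all genes), and Bmp7, lower (2.79%). Bmp7 passed the filter only through its Apex signals, as both its VEGFD signals were below 25.3. Its direction in these counts is therefore not independent of the filter. With 2 arrays a group an exact permutation test cannot go below p = 0.333.

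The median log2 change was 0.23 over 35 members and -0.04 over all genes tested, with 21 members higher and 14 lower. Without VEGFD replicate 1 these medians were 0.06 and -0.05. Between replicates the arrays' median member value had an SD of 0.18 on the log2 scale. The receptors had the highest median of the roles (0.41, 9 of 11 higher), followed by Smads with Skil (0.17, 5 of 8), ligands (0.10, 5 of 9), Id genes (-0.24, 1 of 4) and antagonists (-0.26, 1 of 3). Of all genes tested 46.4% were higher. The receptor median was 0.14 without VEGFD replicate 1, with 7 of 11 higher, and 0.19 without Apex replicate 2, with 8 of 11. It was 0.70 without VEGFD replicate 2, with 11 of 11 higher.

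**Figure D1:**
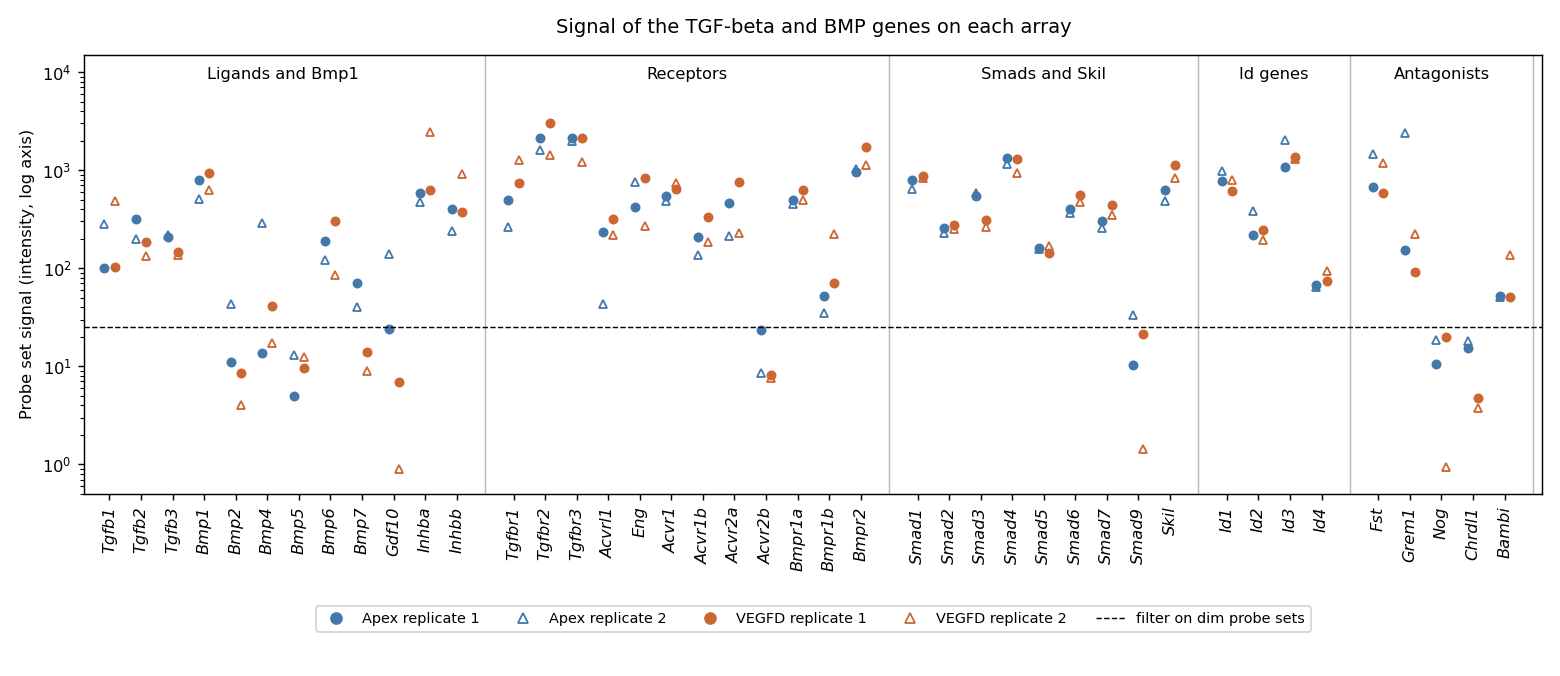
Probe set signal of each of the 42 genes (log axis) on the 4 arrays, by role, with Apex arrays in blue, VEGFD arrays in orange, replicate 1 as filled circles and replicate 2 as open triangles. The dashed line marks the filter, a signal of 25.3; Grem1, Bmp4 and Gdf10 stand out on Apex replicate 2, and Inhba on VEGFD replicate 2.

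Tgfbr1 and Smad3 are the type I receptor gene of TGF-beta and the gene of one of its signal carriers. They differed in opposite directions without overlap, so the 250 bases before the most upstream listed start of each gene are shown (RefSeq, GRCm38.p6). Tgfbr1 had 2 listed starts and Smad3 had 1. Letters in capitals mark GGCGCC, a GC-rich box that Smads can bind, and CAGAC or its complement GTCTG, the core of the Smad-binding CAGA box. The Tgfbr1 stretch lies on the plus strand at chr4:47352972-47353221 and holds 1 GGCGCC. The Smad3 stretch lies on the minus strand at chr9:63757995-63758244 and holds neither motif.
Tgfbr1: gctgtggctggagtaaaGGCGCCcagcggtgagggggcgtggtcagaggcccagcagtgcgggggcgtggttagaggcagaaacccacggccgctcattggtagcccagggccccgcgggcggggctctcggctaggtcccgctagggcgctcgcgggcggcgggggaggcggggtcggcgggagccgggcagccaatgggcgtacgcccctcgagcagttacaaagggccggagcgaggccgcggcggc
Smad3: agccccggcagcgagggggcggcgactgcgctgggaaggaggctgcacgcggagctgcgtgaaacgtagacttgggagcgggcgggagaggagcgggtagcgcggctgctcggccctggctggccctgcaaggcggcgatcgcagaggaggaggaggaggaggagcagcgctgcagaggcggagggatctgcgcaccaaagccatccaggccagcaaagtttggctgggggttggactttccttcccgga
Of 27 members with an upstream stretch in the table, 11 (40.7%) held CAGAC or GTCTG and 7 (25.9%) held GGCGCC, which reads the same on both strands. Over 32851 stretches of the same length the shares were 42.2% and 9.59%. Those stretches hold every listed start of a gene, whereas each member counts once, and they were not matched for GC content. A match describes these letters and is not a binding site.

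Among the receptors of TGF-beta itself, Tgfbr1 had more signal in VEGFD arrays. Its signals were 501, 263, 732 and 1274. Both VEGFD arrays exceeded both Apex arrays, with a log2 change of 1.37 ± 0.42 (SE; 95% interval 0.31 to 2.43), or 2.58-fold, and a limma adjusted p of 0.823. A second Tgfbr1 probe set above the filter gave 1.39, and with 1 array left out the change ran from 0.93 to 1.81. Tgfbr2, which encodes the type II receptor that pairs with it, had signals of 2137, 1591, 3009 and 1439. The groups overlapped, with the highest and the lowest signal both in VEGFD arrays and a log2 change of 0.17 ± 0.40. A dimmer Tgfbr2 probe set above the filter had signals of 66.9, 12.3, 139 and 58.3 and a change of 1.15, also with overlap, and with averaged probe sets the gene was at 0.46. Tgfbr3, which encodes the co-receptor betaglycan, had 2136, 1991, 2104 and 1205, and VEGFD replicate 2 alone was low (-0.37 ± 0.31). A dimmer Tgfbr3 probe set gave 0.41, the opposite sign.

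The endothelial BMP receptor pair varied widely between replicates. Acvrl1 had signals of 235, 42.9, 316 and 216, so that Apex replicate 2 alone was low. Its log2 change of 1.19 ± 0.70 was 0.14 without that array, the one with the highest endothelial marker sum. Eng had 417, 765, 829 and 271, with a high and a low array in either group and a change of -0.24 ± 0.58. Both genes had a second probe set above the filter, at 0.86 for Acvrl1 and -0.26 for Eng.

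Of the broadly expressed BMP receptors, Bmpr2, which encodes the type II receptor, had signals of 963, 1022, 1716 and 1122. VEGFD arrays were above Apex arrays, by 0.48 ± 0.28, but 2 further probe sets gave 0.18 and -0.28. Bmpr1a, a type I receptor gene, had 490, 450, 627 and 499. Its groups lay 0.24 ± 0.24 apart without overlap, and of 4 further probe sets 3 had the same sign. Bmpr1b, the gene of the related type I receptor, was much dimmer on VEGFD replicate 1 than on replicate 2, with signals of 51.7, 35.3, 70.1 and 222. Its log2 change was 1.28 ± 0.53, or 2.43-fold, with 2 further probe sets at 0.82 and 0.50. Without VEGFD replicate 1 it was 2.02 and was called by limma (adjusted p = 0.0344), where 1 array stood for the group and was assumed to vary like the others. Without VEGFD replicate 2 it was 0.55 and was not called.

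The activin receptor genes leaned higher without separating clearly. Acvr1, a type I receptor gene that serves BMPs as well, had signals of 548, 482, 635 and 746, a small difference without overlap of 0.41 ± 0.23. One other probe set gave 0.61 and another -0.08. Acvr1b, which encodes an activin type I receptor, had 207, 136, 334 and 187 (0.54 ± 0.37), and Apex replicate 1 exceeded VEGFD replicate 2. Acvr2a, which encodes a type II receptor, had 468, 212, 763 and 226. In that gene replicate 1 was above replicate 2 in both groups, and the change of 0.39 ± 0.65 was -0.45 without VEGFD replicate 1 and -0.16 without Apex replicate 2. Acvr2b, the other activin type II receptor gene, lay below the filter with signals from 7.55 to 23.3.

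**Figure D2:**
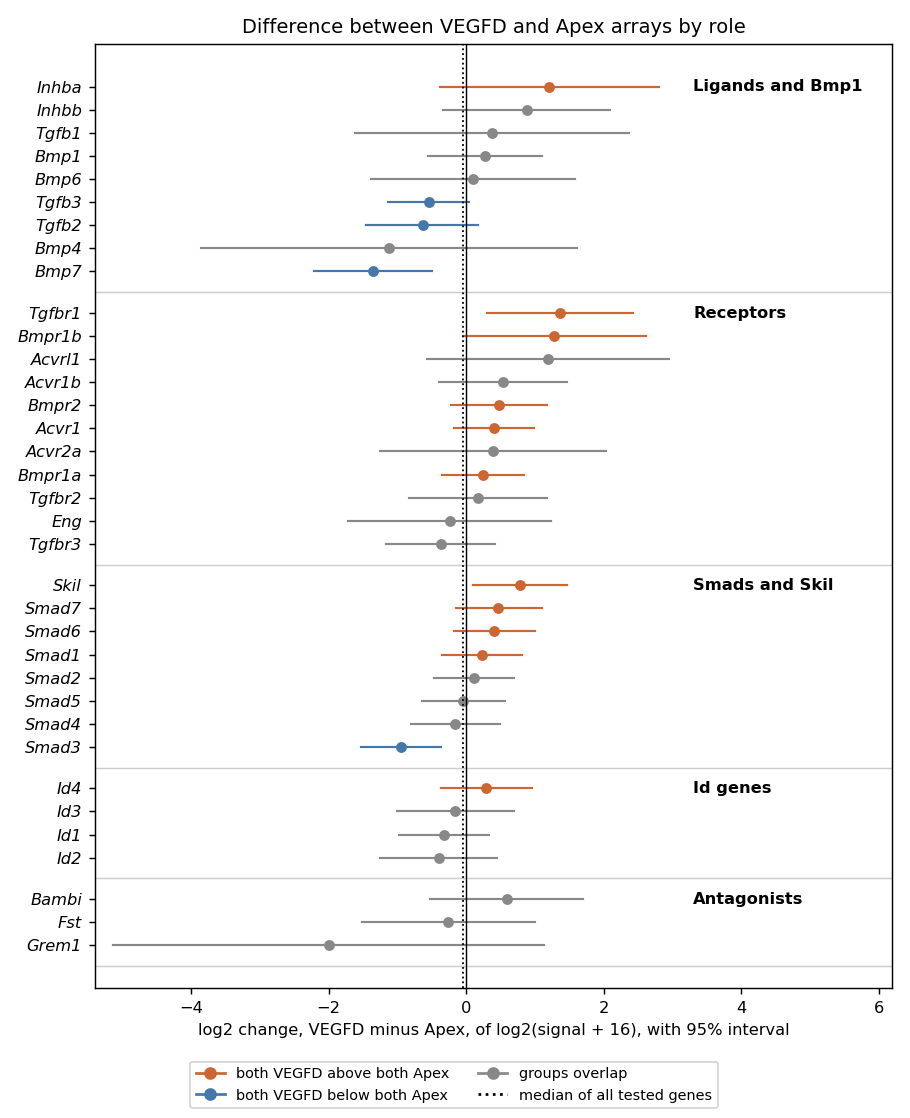
Log2 change of the 35 genes that passed the filter (horizontal axis, VEGFD minus Apex, of log2(signal + 16)), by role, with the 95% interval of the limma fit as bars. Orange marks genes with both VEGFD arrays above both Apex arrays (11), blue the reverse (4) and grey overlap; the intervals of Tgfbr1, Skil, Smad3 and Bmp7 do not reach 0.

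TGF-beta ligand genes were not alike. Tgfb2 had signals of 318, 201, 185 and 134, and Tgfb3 had 206, 217, 146 and 135. In both, the VEGFD arrays were below the Apex arrays, with log2 changes of -0.63 ± 0.32 and -0.54 ± 0.23. All 3 further Tgfb2 probe sets above the filter were negative too, from -0.98 to -0.27, whereas Tgfb3 had a single probe set. Tgfb1, the isoform gene of endothelium and immune cells, had 101, 281, 102 and 483. Its replicate 2 exceeded replicate 1 in either group, and the change of 0.38 ± 0.79 was -0.29 without Apex replicate 1 and -0.66 without VEGFD replicate 2.

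The activin subunit genes were bright on 1 VEGFD array. Inhba, which encodes the subunit of activin A, had signals of 585, 475, 628 and 2443. VEGFD replicate 1 lay just above the Apex arrays and VEGFD replicate 2 far above them, with a log2 change of 1.21 ± 0.63, or 2.32-fold. Without VEGFD replicate 1, where the bright array alone stood for the group, the change was 2.18. Without VEGFD replicate 2 it was 0.24. Inhbb, which encodes the subunit of activin B, had 397, 240, 375 and 904, with the same array high and the groups overlapping. Its change was 0.88 ± 0.48, or 0.27 without VEGFD replicate 2 and 1.5 without VEGFD replicate 1, and a second probe set gave 0.42. VEGFD replicate 2 was also the array with the highest smooth muscle and pericyte marker sum, 18743, most of it from Acta2 (8802) and Tagln (5553). In that list 6 of 9 tested markers had a positive log2 change, among them Myl9 (1.97) and, with overlap, Cnn1 (1.3). The 3 with a negative change were Pdgfrb (-0.97), Des (-1.33) and, with overlap, Rgs5 (-0.34).

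BMP ligand genes were mostly dim. Bmp7 had signals of 70.6, 40.2, 13.9 and 8.97, with both VEGFD arrays below the filter level. Its log2 change was -1.35 ± 0.34 (limma adjusted p = 0.823, unadjusted p = 0.00933), and with a pseudocount of 64 it was -0.65. No other Bmp7 probe set was above the filter. Bmp4, a morphogen gene that endothelium and stroma make, had 13.7, 289, 41.5 and 17.4, high on Apex replicate 2 alone. The change of -1.12 ± 1.09 became 0.56 without that array. Bmp6, which endothelial cells make to signal iron load in the liver, had 191, 120, 304 and 85.0 and a change of 0.10 ± 0.59, with the groups overlapping. Bmp1, which encodes a protease that trims procollagen and frees ligands from chordin, had 791, 511, 946 and 630. Its change was 0.27 ± 0.33, with replicate 1 above replicate 2 in both groups, and a second probe set gave 1.50.

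Below the filter were Bmp2, Bmp5 and Gdf10, for which no test was made. Bmp2 had signals of 11.0, 43.5, 8.52 and 4.03, and Gdf10, which encodes a divergent BMP-like ligand, had 24.0, 139, 6.88 and 0.907. Either gene was highest on Apex replicate 2, the array with the highest endothelial marker sum. Bmp5 did not exceed 13.1. Gdf10 was the member just outside the filter, with a mean of log2(signal + 16) of 5.30 against a limit of 5.37, and Bmp7 was the member just inside it, at 5.45.

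Among the Smads, Smad3 had the smallest unadjusted p, 0.00797 in limma. Its signals were 545, 592, 313 and 262. The Apex arrays lay close together, as did the VEGFD arrays, and the log2 change was -0.95 ± 0.23 (95% interval -1.53 to -0.37), or 1.93-fold lower, with a limma adjusted p of 0.823. With 1 array left out it ran from -1.07 to -0.83. A second and dimmer Smad3 probe set above the filter had signals of 41.5, 31.0, 43.2 and 53.4, a change of 0.30 in the opposite direction. With probe sets averaged the change was -0.21.

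The partners of Smad3 differed little. Smad2, the other TGF-beta and activin effector gene, gave 258, 229, 279 and 252, which differ by 0.12 ± 0.23 on the log2 scale. Smad4, the shared partner, had 1317, 1144, 1301 and 930 and a change of -0.16 ± 0.26. For both genes the groups overlapped and other probe sets differed in sign. Of the BMP effector genes, Smad1 had 802, 639, 862 and 825 (0.23 ± 0.23), a narrow difference without overlap that both further probe sets shared in sign. Smad5 had 162, 157, 143 and 167 (-0.04 ± 0.24, and 0.08 after median centring of the arrays), and Smad9 lay below the filter with at most 33.7. The 95% intervals were -0.47 to 0.70 for Smad2, -0.80 to 0.49 for Smad4 and -0.64 to 0.56 for Smad5, which leave room for differences of either sign.

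Smad6, Smad7 and Skil, members whose products restrain the pathway inside the cell, had more signal in both VEGFD arrays than in either Apex array, as had 16.6% of all genes. Smad6, whose product restrains BMP signalling, had 401, 365, 563 and 470 (0.41 ± 0.23). Smad7, whose product restrains both branches, had 300.1, 257, 440 and 348 (0.47 ± 0.25), and a second probe set, whose groups overlapped, gave 0.20. Skil, the gene of the Smad co-repressor SnoN, had 634, 482, 1117 and 831. Its log2 change was 0.78 ± 0.27 (95% interval 0.10 to 1.47; limma adjusted p = 0.823), or 1.72-fold, and a second probe set gave 0.79. With 1 array left out the Skil change ran from 0.57 to 0.99, that of Smad7 from 0.31 to 0.63 and that of Smad6 from 0.29 to 0.54. In a list of 17 other regulators inside the cell, 8 were higher and 1 lower without overlap, against 16.6% and 21.8% of all genes. That list was not limited to genes that restrain the pathway. The higher ones were Pmepa1 (1.35), Tgif1 (0.78), Usp15 (0.71), Map3k7 (0.65), Smurf1 (0.37), Strap (0.31), Trim33 (0.18) and Tgif2 (0.16). The lower one was Tgfbrap1 (-0.41). The rest overlapped between groups, among them Smurf2 (0.17), Ski (0.13) and Ppm1a (-0.07). The overlapping genes named were picked from that list after their values were seen.

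**Figure D3:**
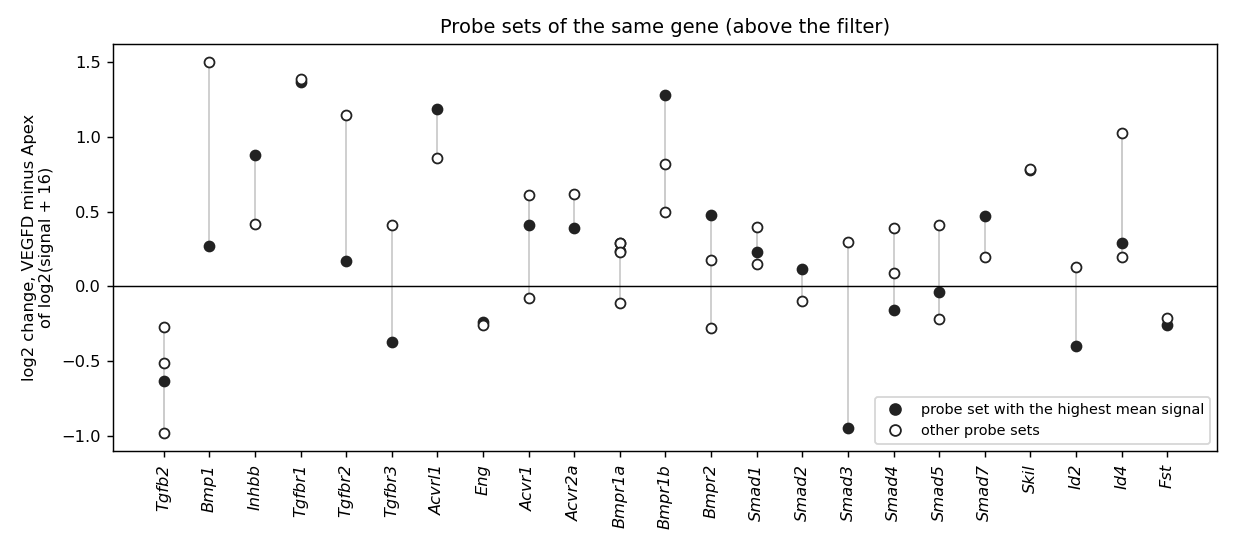
Log2 change (vertical axis, VEGFD minus Apex, of log2(signal + 16)) of every probe set above the filter, for the 23 genes with more than 1 such probe set; filled points are the probe sets used and open points the others. The points of Tgfbr1 and Skil nearly coincide, those of Tgfb2 are all below 0, and those of Smad3 lie on both sides of 0.

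Over the 23 tested members with another probe set above the filter, 25 of 35 other probe sets had the sign of the one used. In 14 of the 23 genes all of them did.

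The Id genes, transcriptional inhibitors and standard readouts of BMP signalling, were not alike. Id1 had signals of 771, 988, 606 and 800.0, Id2 had 219, 384, 243 and 193, and Id3 had 1084, 2031, 1353 and 1304. Each was highest on Apex replicate 2, and the groups overlapped. Their log2 changes were -0.32 ± 0.26, -0.40 ± 0.34 and -0.16 ± 0.34, and without Apex replicate 2 that of Id3 was 0.29, that of Id2 -0.02 and that of Id1 -0.14. A second Id2 probe set above the filter gave 0.13, the opposite sign, and Id2 with averaged probe sets was at -0.12. Id4 had 67.0, 63.6, 73.7 and 94.4, with both VEGFD arrays higher by 0.29 ± 0.26. Its 2 further probe sets gave 1.03 and 0.20.

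The 3 tested antagonist genes overlapped between groups. Grem1, which encodes the BMP antagonist gremlin, had signals of 154, 2407, 91.4 and 223. Apex replicate 2 was far above the rest, the log2 change was -2.00 ± 1.24, and without that array it was -0.08. Fst, which encodes the activin-binding follistatin, had 673, 1470, 584 and 1176. Its replicate 2 was high in both groups (-0.26 ± 0.50), and a second probe set gave -0.21. Bambi, which encodes a decoy receptor, had 51.8, 51.0, 50.8 and 137, bright on VEGFD replicate 2 alone (0.59 ± 0.44, and -0.01 without it). Nog and Chrdl1, genes of the ligand traps noggin and chordin-like, lay below the filter. Nog did not exceed 20.1, and Chrdl1 had signals of 15.4, 18.1, 4.8 and 3.72, with both VEGFD arrays below both Apex arrays and no test.

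Which array held the extreme value differed between these genes and the rest. The lowest signal lay on Apex replicate 2 for 16 of 35 members (45.7%), against 24.8% of all genes tested. The highest lay on VEGFD replicate 1 for 14 members (40.0%), against 22.3%. Without Apex replicate 1, 9 members were 2-fold apart without overlap, where the share of all genes was 8.26%. Without VEGFD replicate 1 it was also 9 members, with 11.5% of all genes. Either removal brought in Smad3 and Inhbb; Acvrl1, Bmp4 and Grem1 came in with the first, and Bambi, Eng and Tgfb1 with the second. Leaving out Apex replicate 2 or VEGFD replicate 2 gave 4 each, where the shares of all genes were 3.79% and 4.92%. The number was that on all arrays, but the genes were not the same. Without Apex replicate 2 they were Bmp7, Bmpr1b, Inhba and Tgfb1. Without VEGFD replicate 2 they were Acvr2a, Acvrl1, Bmp7 and Grem1.

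Other genes of the pathway, taken from lists by function, numbered 78 named on the arrays and 57 tested. Limma called 0 of them, and 12 had an unadjusted p under 0.05, against 5.7% of all genes. The groups did not overlap in 29 of 57 (50.9%, against 38.5%), and the median log2 change was 0.11. By list the groups did not overlap in 3 of 8 other ligands, 1 of 2 other receptors, 4 of 9 genes of latency and activation and 3 of 7 other extracellular antagonists. The counts were 9 of 17 intracellular regulators and 11 of 16 reported targets.

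Genes that store or activate TGF-beta outside the cell differed in both directions. Ltbp2, which encodes a microfibril protein of the latent TGF-beta binding family, gave 298, 398, 916 and 2148, a difference of 1.98 ± 0.44 on the log2 scale. Itgb8, whose product forms the integrin that activates latent TGF-beta, had 105, 164, 31.5 and 20.3 (-1.83 ± 0.33). Thbs1, which encodes thrombospondin, another activator, had 573, 770, 900.0 and 4701 (1.61 ± 0.76). All 3 genes separated the groups, none passed over all genes (limma adjusted p = 0.671 for Itgb8), and all passed without VEGFD replicate 1, at adjusted p = 0.0105, 0.041 and 0.0103. That fit has a single VEGFD array and calls 372 of 11677 genes. Without VEGFD replicate 2 none of the 3 was called, and the changes were 1.37 for Ltbp2, -1.63 for Itgb8 and 0.43 for Thbs1.

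Other secreted regulators showed smaller differences. Bmper, which encodes an endothelial BMP modulator, had 549, 263, 849 and 1165 (1.35 ± 0.40). Fstl3, of the follistatin family, had 360, 277, 545 and 411 (0.56 ± 0.27), and for both genes VEGFD arrays were above Apex arrays. Chrd, which encodes the BMP trap chordin, had -0.51 ± 0.34 with overlap. Among other ligands Lefty1, a nodal inhibitor gene, had 285, 279, 185 and 130 (-0.80 ± 0.27), and Gdf9 had -0.66 ± 0.32, both without overlap. Bmp8a had -0.88 ± 0.53 and overlapped. The co-receptor genes Rgmb and Rgma had -0.35 ± 0.31 and -0.27 ± 0.26.

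Inside the cell, 13 of 17 regulators were higher in VEGFD arrays, with a median log2 change of 0.17. Pmepa1, a feedback inhibitor gene induced by TGF-beta, had signals of 1099, 452, 1460 and 2284 (1.35 ± 0.48). Tgif1, a Smad co-repressor gene, had 204, 137, 250 and 357 (0.78 ± 0.31), and the VEGFD arrays exceeded the Apex arrays in both. Usp15, which encodes a deubiquitinase acting on receptors and Smads, had 272, 208, 371 and 430 (0.71 ± 0.25), and -0.23 with averaged probe sets.

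Genes reported as TGF-beta targets went both ways. Tagln, a contractile gene also counted as a smooth muscle marker, had 454, 746, 1632 and 5553 (2.34 ± 0.61), and Ankrd1, a stress-responsive gene, had 264, 641, 1389 and 2332 (2.08 ± 0.48). Both passed in limma without VEGFD replicate 1 (adjusted p = 0.0105 and 0.045), the fit that calls 372 genes. Without VEGFD replicate 2 their changes were 1.46 and 1.71, and neither was called. Tgfbi, named for its induction by TGF-beta, had 384, 1506, 38.4 and 155, the opposite direction at -3.02 ± 0.81. In the 16 tested targets 7 were higher and 4 lower without overlap, against 16.6% and 21.8% of all genes, with a median of 0.28. The list shares Tagln and Acta2 with the smooth muscle and pericyte markers and Col1a1 with the fibroblast markers.

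**Figure D4:**
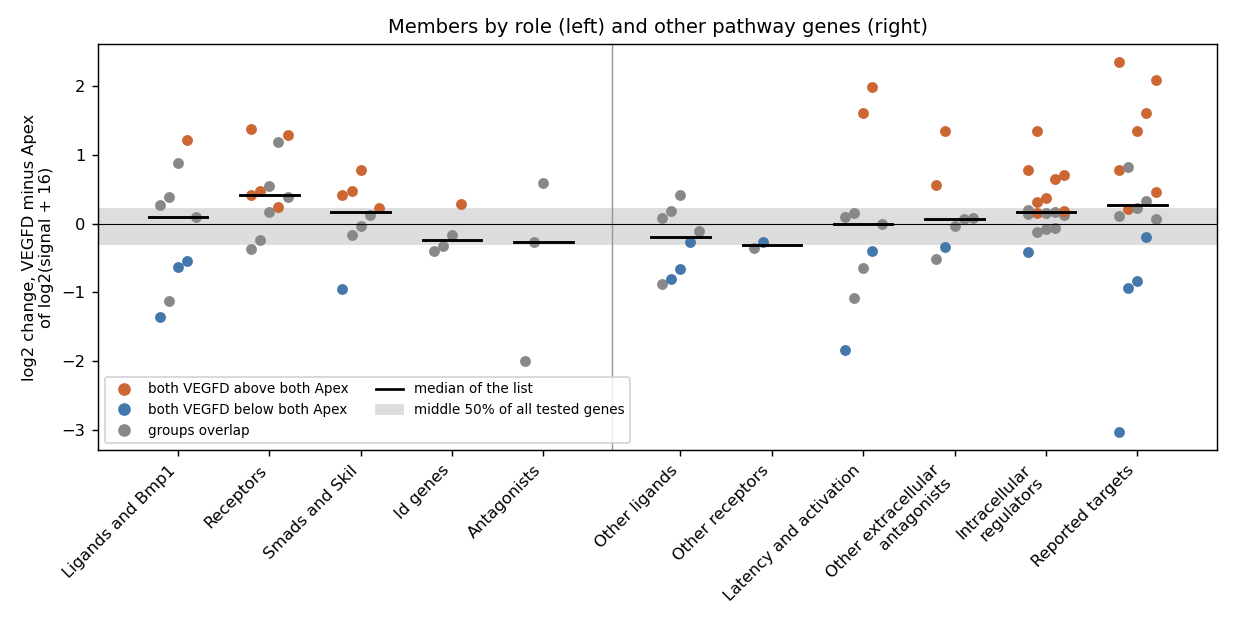
Log2 change (vertical axis, VEGFD minus Apex, of log2(signal + 16)) of each tested gene, for the 35 members by role on the left and 57 other pathway genes by list on the right; a gene in 2 lists is drawn in each. Lines are list medians and the grey band holds the middle 50% of all genes tested; the receptors (median 0.41) lie highest among the roles, and the reported targets run from -3.02 to 2.34.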

How the data were processed

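RNA was measured on 4 Affymetrix mouse arrays, 2 per group by title. The deposited values are linear intensity, 1 signal per probe set; the sources used here do not name the software behind them. From the values, the authors' scaling gave every array a mean of 150 after trimming 2% at each end. Medians ran from 23.8 to 30.4 between arrays, and the number of arrays limits the precision. The platform annotation names 34945 of 45101 probe sets with 1 gene; 932 with several and 9160 with none named no gene. All 42 member symbols matched GRCm38.p6 by gene ID.

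Each gene took its probe set with the highest mean signal. Genes were kept where the mean of log2(signal + 16) reached 5.37, the median over probe sets other than controls. The groups were tested in R 4.3.3 with the package limma 3.58.1 (lmFit, eBayes with trend), two-sided, with Benjamini-Hochberg adjustment over 11677 genes. The procedure was run on simulated arrays with independent noise. That run checked only the sign and size of large planted changes, and set no requirement on the genes called. The members, lists and tests were chosen with earlier results of these data known. Every member is given by role; of each other pathway list the 3 tested genes with the largest change are named. Alternatives changed the scaling, pseudocount, filter, probe set rule, trend, replicate block and arrays used. Marker lists for fat cells, macrophages, lymphocytes and epithelium were also measured.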

Additional observations from a re-analysis of the deposited data

How the results depend on the processing

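Of 35 members, 22 kept their sign under each of 14 alternatives in which they were tested; of 344 values from the 10 alternatives that kept all arrays, 5 changed sign. These were Smad5 after median centring of the arrays (0.08) and, when probe sets were averaged, Smad4 (0.11), Smad5 (0.05), Tgfb1 (-0.09) and Tgfbr3 (0.02). Usp15, no member, changed to -0.23 with averaged probe sets. With 1 array left out 13 members changed sign in some fit. Their log2 changes ran from -0.45 to 1.23 for Acvr2a, -0.01 to 1.18 for Bambi, -0.03 to 0.58 for Bmp1, -2.80 to 0.56 for Bmp4, -0.73 to 0.93 for Bmp6, -1.02 to 0.54 for Eng, -0.81 to 0.29 for Fst, -0.61 to 0.29 for Id3, -0.39 to 0.08 for Smad4, -0.14 to 0.06 for Smad5, -0.66 to 1.42 for Tgfb1, -0.35 to 0.70 for Tgfbr2 and -0.77 to 0.03 for Tgfbr3. The cause was not tested.

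The count of members 2-fold apart without overlap, 4 on all arrays, was 2 with a pseudocount of 64 (1.98% of all genes), 2 with a stricter filter (3.31%; fewer genes tested), 1 with averaged probe sets (2.84%), 5 with no filter (3.06%), where Gdf10 entered, and 4 to 9 with 1 array left out. Members called numbered 0 to 2 with 1 array left out, and all genes called 0 to 372, the most without VEGFD replicate 1, where 1 array stood for the group. The members' median log2 change ran from 0.06 to 0.35 over all alternatives. Centring the arrays on their medians moved the median of all genes from -0.04 to 0.09, and the members' median lay 0.27 above it either way, against 0.11 without VEGFD replicate 1. All genes 2-fold apart without overlap were 127 higher and 326 lower as deposited, and 192 and 239 after that centring.

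With the replicate block, 6 genes were called, all lower, and 0 members; Tgfbi, no member, passed (adjusted p = 0.0362). Same-numbered arrays deviated with a correlation of 0.20 over genes, and nothing in the labels says that they pair. Probe sets carry no detection calls, so signals near or below 25.3 have no stated limit against background.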
